A study of Mus musculus with 6 samples.

Results

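Adenosine is made outside cells from released ATP and is cleared again by uptake and phosphorylation. The genes described here are 7 members of that route: Nt5e, Adora1, Adora2a, Adk, Entpd1, Entpd2 and Slc29a1. They were taken by gene symbol from the platform annotation of the array, which gave 14 probe sets for 5 of the 7 genes, of 45037 non-control probe sets in the table. No probe set carried the symbol Adora1 or Adora2a in that annotation, so neither receptor gene was analysed here. The set was chosen by way of the diet difference of Nt5e, which was already known, so the diet differences of all members are given as a description. Where counts from the fit over all probe sets are given for them, nothing is read from those counts.

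RNA was measured on Affymetrix Mouse430_2 arrays in amygdala dissected 2 h after fear extinction training from male 129S1/SvImJ mice, an inbred strain, aged 8 to 10 weeks. One group was 3 mice on a diet that the labels call "Zn" or "ZnR" (replicates 3, 7 and 10), called the zinc diet here, and the other was 3 mice on the control diet (replicates 1, 9 and 11). All 6 mice had been trained, each gave 1 array, and the zinc content of neither diet is given in the sources used here. The comparison asks how the diet goes with transcript levels in the amygdala after extinction.

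As background, ectonucleotidases on the cell surface take phosphates off ATP and ADP (Entpd1 and Entpd2) and then off AMP (Nt5e), which yields adenosine. Slc29a1 encodes an equilibrative transporter that carries adenosine across the membrane, and Adk encodes adenosine kinase, which turns adenosine back into AMP inside the cell and in the adult brain is known mainly from astrocytes. Adenosine slows neurons through the inhibitory receptor encoded by Adora1 and raises cyclic AMP through the receptor encoded by Adora2a, which is known for its abundance, like Nt5e, in the striatum.

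Nt5e was higher in the zinc diet mice on its 1 well-expressed probe set, and Adk was higher on its brightest probe set by a smaller amount. Both genes are shown here by the 250 bases before each of their RefSeq transcription starts in mouse build GRCm38.p6, because they hold the 2 member probe sets on which the diets did not overlap. Each is on the plus strand and printed 5′ to 3′, with every match to the motif GGGCGG, the core of the GC box, or to its reverse complement in capitals; neighbouring matches may overlap.
Nt5e, chr9:88327359-88327608: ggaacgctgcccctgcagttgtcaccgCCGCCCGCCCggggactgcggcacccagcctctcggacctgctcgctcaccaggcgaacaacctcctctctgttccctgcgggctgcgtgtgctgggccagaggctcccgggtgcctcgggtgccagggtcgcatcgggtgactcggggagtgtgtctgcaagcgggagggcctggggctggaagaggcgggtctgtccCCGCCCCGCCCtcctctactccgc
Adk start 1, chr14:21052324-21052573: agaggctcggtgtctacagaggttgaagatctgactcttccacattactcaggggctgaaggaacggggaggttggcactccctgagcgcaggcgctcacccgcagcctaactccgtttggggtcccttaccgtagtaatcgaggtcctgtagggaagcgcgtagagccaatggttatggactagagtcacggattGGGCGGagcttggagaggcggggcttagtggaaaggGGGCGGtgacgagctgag
Adk start 2, chr14:21075902-21076151: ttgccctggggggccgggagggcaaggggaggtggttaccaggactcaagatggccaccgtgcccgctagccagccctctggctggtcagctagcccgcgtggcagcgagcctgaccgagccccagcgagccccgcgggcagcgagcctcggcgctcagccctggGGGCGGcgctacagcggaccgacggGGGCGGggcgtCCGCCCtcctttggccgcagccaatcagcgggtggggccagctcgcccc

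The Nt5e window was 72% G and C and held 4 matches to GGGCGG. The windows of Adk starts 1 and 2 were 58.8% and 75.2% G and C, with 2 and 3 matches. Over all 32851 windows of the same length in the RefSeq table the median G and C content was 52.4%, and 32.7% held at least 1 match, counting both strands. Of the other motifs searched on both strands, TGACG, the first part of a cyclic AMP response element, matched once before Adk start 1 and nowhere in the other windows printed here, against 17.8% of all windows. CACGTG and TATAAA matched none of the 3 windows, against 6.02% and 12.4% of all windows. The RefSeq table held starts for 6 of the 7 members, and GGGCGG matched in 9 of their 16 windows. These matches describe the letters of the windows and no factor's binding.

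Nt5e encodes ecto-5′-nucleotidase, the surface enzyme of the last step to adenosine. On probe set 1428547_at its log2 level was 7.32, 7.29 and 7.14 in zinc diet replicates 3, 7 and 10, against 6.30, 6.18 and 6.45 in control replicates 1, 9 and 11. The lowest zinc diet mouse lay well above the highest control mouse, and mice of the same diet lay close together. Zinc diet mice averaged 7.25 ± 0.10 and control mice 6.31 ± 0.14 (SD, n = 3 each), a log2 change of 0.94 ± 0.10 (SE), or 1.92-fold, with a 95% interval of 0.71 to 1.18. The spread within the diets, an SD of 0.12, was below the median of 0.14 over all probe sets tested, and 40.6% of them had a smaller one.

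The 2 other Nt5e probe sets were dim and did not share that difference. Probe set 1422974_at read 3.53, 3.45 and 3.51 in zinc diet mice, against 3.57, 3.40 and 3.25 in control mice. Probe set 1459023_at read 2.44, 2.52 and 2.50 in zinc diet mice, against 2.49, 2.54 and 2.42 in control mice. The diets overlapped on both, and both had a mean log2 level under 4, the filter below which probe sets were not tested. That filter lies near the median of each array, and without detection calls it is not known here whether levels under it are above background. Averaged over its 3 probe sets, Nt5e differed by 0.34 on the log2 scale, so the size given above rests on 1428547_at. In bulk tissue, more cells of a type that holds a transcript and more of it per cell cannot be told apart.

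Adk, adenosine kinase, had 6 probe sets, of which 3 passed the filter. The brightest, 1438292_x_at, read 11.31, 11.50 and 11.49 in zinc diet replicates 3, 7 and 10, against 11.25, 10.98 and 11.11 in control replicates 1, 9 and 11. The diets did not overlap, but zinc diet replicate 3 and control replicate 1 lay close to each other. Zinc diet mice averaged 11.43 ± 0.11 and control mice 11.11 ± 0.14 (SD, n = 3 each), a log2 change of 0.32 ± 0.10 (SE), or 1.25-fold. Probe sets whose names end in _x_at are of a design that can match related transcripts.

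A second Adk probe set, 1416319_at, read 8.33, 8.55 and 8.23 in zinc diet mice, against 7.85, 8.28 and 8.10 in control mice. Zinc diet replicate 10 lay below control replicate 9, so the diets overlapped, and the log2 change was 0.29 ± 0.14 (SE) with a 95% interval of -0.03 to 0.62. Without control replicate 1, its lowest mouse, that change was 0.18, and without control replicate 9 it was 0.40. The third, 1446068_at, lay at the filter, with 4.32, 3.97 and 4.09 in zinc diet mice, against 3.84, 4.26 and 3.64 in control mice, and a log2 change of 0.21 ± 0.17 (SE). Leaving out control replicate 11 made that change 0.08, and leaving out zinc diet replicate 3 made it 0.12, whereas it was 0.39 when control replicate 9 was dropped. With values under 4 set to 4 it was 0.05. The mean of each of the 3 tested Adk probe sets was higher in zinc diet mice, and 1 of the 3 separated the mice. The 3 dim Adk probe sets, 1446675_at, 1421767_at and 1449641_at, differed by 0.01, 0.02 and -0.19 on the log2 scale, and the mean over all 6 probe sets by 0.11.

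Entpd2, which encodes an ectonucleotidase that prefers ATP, read 6.02, 6.02 and 6.05 in zinc diet replicates 3, 7 and 10, against 6.23, 5.90 and 6.25 in control replicates 1, 9 and 11. The zinc diet mice were nearly alike and lay between the control mice. The log2 change of its 1 probe set, 1418259_a_at, was -0.10 ± 0.11 (SE), with a 95% interval of -0.36 to 0.16. It was -0.21 without control replicate 9 and -0.04 without control replicate 11.

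Slc29a1, the equilibrative adenosine transporter gene, read 4.31, 4.46 and 4.31 in zinc diet mice, against 4.29, 4.18 and 4.58 in control mice, on probe set 1451782_a_at. The levels were close to the filter, and the control mice spanned all 3 zinc diet mice. The log2 change was 0.01 ± 0.12 (SE), with a 95% interval of -0.27 to 0.29. Its sign turned with the mouse left out, from -0.07 without control replicate 9 to 0.13 without control replicate 11.

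Entpd1, the ectonucleotidase gene known in brain from microglia and vessels, passed the filter on none of its 3 probe sets. The highest of them, 1450939_at, read 4.03, 3.95 and 3.43 in zinc diet mice, against 3.27, 3.78 and 3.80 in control mice, with the diets overlapping. The others, 1423326_at and 1453586_at, averaged 3.31 and 3.09 in zinc diet mice, against 3.26 and 3.01 in control mice. Entpd1 was therefore not tested.

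**Figure D1:**
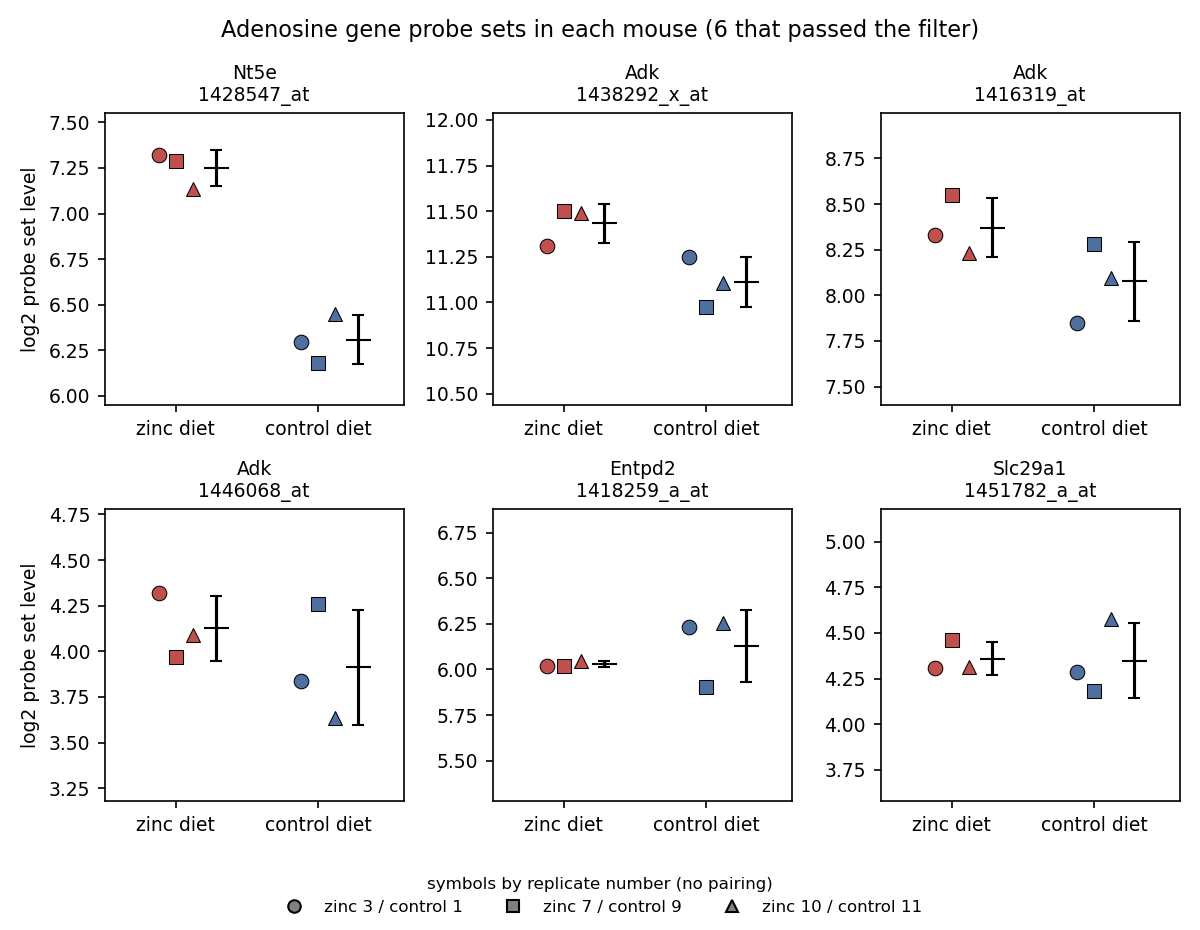
Log2 level of the 6 tested probe sets of the adenosine genes in each of the 6 mice, zinc diet in red and control diet in blue, with the mean and SD (n = 3) to the right of the points; every panel spans the same height on the log2 scale. The 3 zinc diet mice lie above the 3 control mice for Nt5e (7.14 to 7.32 in zinc diet mice against 6.18 to 6.45 in controls) and for Adk 1438292_x_at (11.31 to 11.50 in zinc diet mice against 10.98 to 11.25 in controls), and the diets overlap in the other 4 panels.

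Read over all members, 6 of the 14 probe sets passed the filter, for 4 genes. Of these 6, 5 had a higher mean in the zinc diet mice and 1 a lower one. The diets did not overlap on 2 of the 6, both higher, while 6.66% of all 22877 probe sets tested had all 3 zinc diet mice above all 3 control mice. With limma and Benjamini-Hochberg adjustment over all probe sets, 0 of the 6 passed an adjusted p of 0.05, as did 0% of all probe sets. At an unadjusted p under 0.05 stood 2 of the 6, the same Nt5e and Adk probe sets, both higher, beside 3.63% of all probe sets that were higher and 2.75% that were lower. The members were chosen with this contrast known, so these counts are set beside the background without being read against it. The 8 probe sets that did not pass the filter differed by -0.19 to 0.19 on the log2 scale, and the diets overlapped on all 8.

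**Figure D2:**
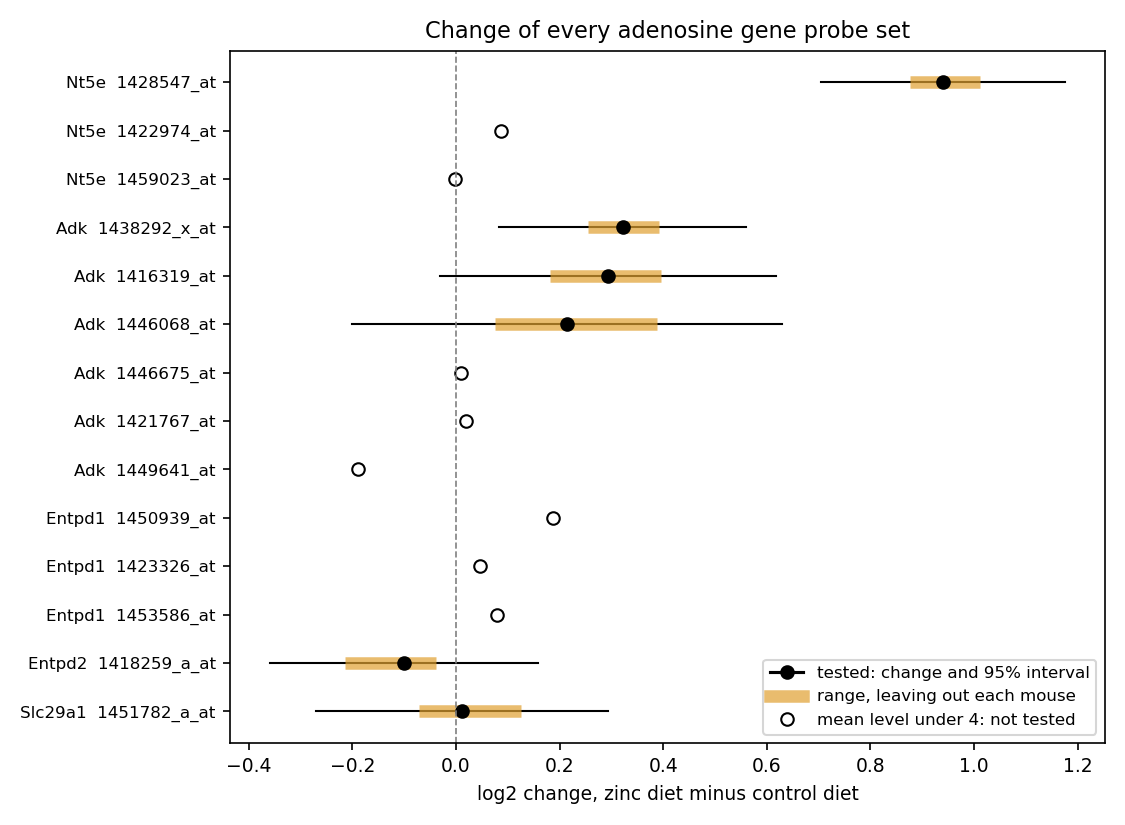
Log2 change (zinc diet minus control diet) of all 14 probe sets of the adenosine genes, one per row. Filled points with a black line are the 6 tested probe sets and their 95% interval, orange bars are the range when each mouse was left out in turn, and open points are the 8 probe sets with a mean log2 level under 4. Nt5e 1428547_at stays between 0.88 and 1.01 whichever mouse was left out, and its 2 dim probe sets lie near 0.

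The levels of Nt5e across the 6 mice were most like those of Foxp2, a forkhead transcription factor gene. Likeness was measured as the root mean square distance between log2 levels after each probe set was centred on its mean over the 6 arrays, over 19648 tested probe sets with 1 symbol other than that of Nt5e, whose median distance was 0.49. Foxp2 (1440108_at) lay at 0.075, with 9.23, 9.34 and 9.17 in zinc diet mice against 8.24, 8.12 and 8.28 in control mice. The next genes were Rasd2, a small GTPase gene known from the striatum, at 0.12, the formin gene Inf2 at 0.12, the matrix protein gene Npnt at 0.12 and Sertad4 at 0.13. This distance is small only for probe sets with a similar diet difference. The other tested members lay farther away, with Adk 1438292_x_at at 0.34, Adk 1416319_at at 0.37, Adk 1446068_at at 0.46, Slc29a1 at 0.47 and Entpd2 at 0.53.

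Beyond the members, none of the other genes of adenosine and purine handling passed the test. The list held 61 symbols, of which 51 had a probe set and 30 passed the filter, each gene read on its probe set with the highest mean. With limma, 0 of the 30 passed an adjusted p of 0.05 (smallest adjusted p = 0.78). At an unadjusted p under 0.05 there was 1 higher gene and 0 lower genes, 3.33% of the 30. Of all probe sets tested, 3.63% were higher and 2.75% lower at that unadjusted threshold. By direction alone, 17 of the 30 genes had a higher mean and 13 a lower one. The median log2 change of the 30 was 0.063, beside 0.0091 over all probe sets tested. The diets did not overlap in 3 of the 30, or 10% of them, all 3 higher, beside 6.66% of all probe sets that were higher and 5.33% that were lower without overlap. That one-sided count goes with the choice of the brightest probe set. Over all 53 tested probe sets of the same 30 genes, 3 were higher without overlap (5.66%) and 5 were lower without overlap (9.43%), with a median log2 change of 0.01. At an unadjusted p under 0.05 stood 1 of the 53 that was higher and 2 that were lower, and 0 passed an adjusted p of 0.05. The 5 lower ones were second probe sets of Ampd2 (1426757_at, -0.23), Nt5c2 (1417201_at, -0.19), Ak4 (1421830_at, -0.14), Nt5c3b (1451180_a_at, -0.12) and Slc29a4 (1424900_at, -0.30). The changes were sensitive to single mice, since with each mouse left out in turn 11 of the 30 genes changed sign and 27 either changed sign or moved by over 1.5 times.

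Among genes that hydrolyse nucleotides, 9 were tested with a median log2 change of 0.087. Entpd7, which encodes an intracellular nucleotidase of the family of Entpd1, was the 1 gene at an unadjusted p under 0.05. It read 5.76, 5.95 and 5.73 in zinc diet mice, against 5.46, 5.66 and 5.62 in control mice, a log2 change of 0.23 ± 0.097 (SE; limma adjusted p = 0.78). The zinc diet mice lay just above the control mice, by less than the spread within a diet. Nt5c3, a cytosolic 5′-nucleotidase gene, read 9.57, 9.59 and 9.65 in zinc diet mice, against 9.51, 9.56 and 9.48 in control mice, without overlap but with a log2 change of only 0.087 ± 0.069 (SE; limma adjusted p = 0.88).

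Genes that process adenosine and AMP inside cells numbered 11 tested, with log2 changes from -0.25 (Ak5, an adenylate kinase gene) to 0.15 (Pnp, the purine nucleoside phosphorylase gene) and a median of 0.042. Ada, the adenosine deaminase gene, did not pass the filter, where zinc diet mice averaged 2.86 ± 0.23 and control mice 2.82 ± 0.20 (SD, n = 3 each). Of the nucleoside transporter genes, Slc29a2, the closest relative of Slc29a1 in the list, had 2 tested probe sets that differed in sign. Its changes were 0.073 ± 0.12 on 1447748_x_at and -0.19 ± 0.097 on 1448257_at (SE), and the diets overlapped on both. Slc29a4, a transporter gene of the same family, gave -0.23 ± 0.12 (SE; limma adjusted p = 0.82) on 1441902_x_at, with overlap. Its dimmer probe set, 1424900_at, read 4.48, 4.27 and 4.63 in zinc diet mice, against 4.63, 4.78 and 4.86 in control mice, a log2 change of -0.30 ± 0.11 (SE; limma adjusted p = 0.76). The zinc diet mice lay below the control mice on it, with zinc diet replicate 10 and control replicate 1 nearly level.

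Panx2, which encodes a pannexin, a family with channels known to release ATP, had the highest change of the list. It read 7.73, 7.72 and 7.71 in zinc diet replicates 3, 7 and 10, against 7.57, 7.0 and 7.52 in control replicates 1, 9 and 11, a log2 change of 0.36 ± 0.15 (SE; limma adjusted p = 0.78). No zinc diet mouse was as low as any control mouse, but control replicate 9 stood apart, and without it the change was 0.18. Panx1 gave 0.11 ± 0.088 and the connexin gene Gja1 -0.051 ± 0.093 (SE), both with overlap.

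Adora3, the remaining adenosine receptor gene with probe sets, did not pass the filter. Its 2 probe sets averaged 2.73 and 2.22 in zinc diet mice, against 2.69 and 2.23 in control mice, so no adenosine receptor gene could be compared between the diets here. Adora2b had no probe set with its symbol and was not analysed here. Of 15 P2rx and P2ry genes with a probe set, 4 were tested, with changes from -0.22 (P2ry13) to 0.15 (P2ry14). Both ends rested on single mice: P2ry13 was -0.10 once zinc diet replicate 10 was left out, -0.13 once control replicate 11 was and -0.33 once control replicate 1 was. P2ry14 was 0.02 when control replicate 1 was dropped and 0.03 when zinc diet replicate 10 was dropped. P2ry12, a microglial receptor gene for ADP, gave -0.13 ± 0.13 (SE; limma adjusted p = 0.91), and its sign turned without control replicate 9, to 0.01.

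**Figure D3:**
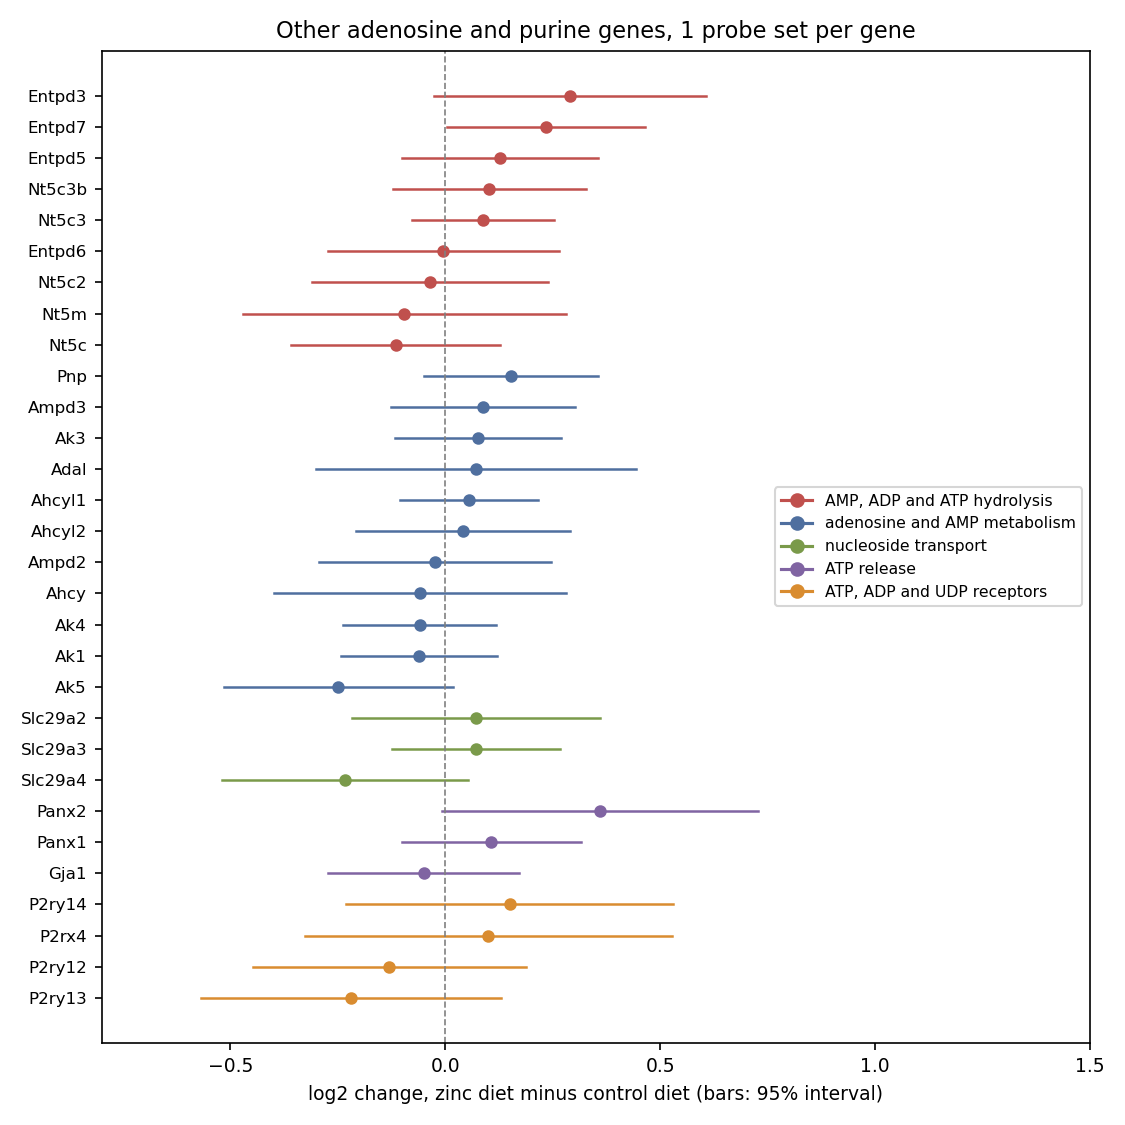
Log2 change (zinc diet minus control diet) with its 95% interval for the 30 other adenosine and purine genes tested, 1 probe set each, coloured by role and ordered within each role. Changes run from -0.25 (Ak5) to 0.36 (Panx2), and the interval of Entpd7 alone leaves out 0.

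Striatal spiny neuron markers were higher in zinc diet mice as a list, as were Nt5e 1428547_at and, by a smaller amount, Adk 1438292_x_at. The members and the marker lists were chosen with earlier results of these data known, so nothing is read from their likeness. The part of any cell type in these differences was not tested. The mean log2 level of 17 tested striatal spiny neuron markers, of 20 listed, was 9.32 to 9.64 in zinc diet mice, against 8.16 to 8.49 in control mice. All 17 were higher, 15 of them without overlap. Of all probe sets tested, 6.66% were higher and 5.33% lower without overlap, and the same shares stand beside the marker lists below. The log2 changes of these 17 markers ran widely, from 0.10 (Bcl11b) to 3.41 (Scn4b), with a median of 0.95, beside 0.94 for Nt5e 1428547_at. Rgs9 (1.80), Ppp1r1b (1.42), Drd1 (0.70) and Drd2 (1.66) were among the 15. Of 5 intercalated cell markers of the amygdala 4 were tested. Their mean was 9.36 to 9.55 in zinc diet mice, against 8.91 to 9.23 in control mice. All 4 were higher by their means, but only Foxp2 (0.86) separated the diets. Tshz1 (0.13), Pbx3 (0.30) and Eya1 (0.16) overlapped, and on each of them control replicate 1 lay above zinc diet replicate 3. The 7 amygdala markers tested, of 8 listed, were well above the filter in every mouse, at 8.98 to 9.09 in zinc diet mice, against 9.12 to 9.16 in control mice. They did not move together: Lypd1 (-0.74), Nr2f2 (-0.68) and Lmo3 (-0.43) were lower without overlap, Rspo2 (0.77) and Cyp26b1 (0.33) were higher without overlap, 3 of the 7 were higher by their means, and the median log2 change was -0.13.

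Astrocyte markers overlapped by their list mean, and the part of astrocytes in the Adk difference was not tested. Their mean over 12 tested genes was 10.07 to 10.20 in zinc diet mice, against 10.06 to 10.21 in control mice. By gene, 4 of the 12 were higher by their means, 0 of them without overlap, and Ndrg2 (-0.09) was lower without overlap. Microglial markers overlapped as well, at 7.38 to 7.42 in zinc diet mice, against 7.35 to 7.49 in control mice (10 genes). P2ry12 is itself 1 of these 10 genes, so the list mean is not separate from it. By gene, 5 of the 10 were higher by their means, 0 of them without overlap, and Aif1 (-0.08) was lower without overlap. Endothelial and pericyte markers overlapped by their list mean, at 6.89 to 6.95 in zinc diet mice against 6.80 to 6.93 in control mice (13 genes). By gene, 10 of the 13 were higher by their means, 2 of them without overlap, Esam (0.19) and Pdgfrb (0.30). Hippocampal markers overlapped by their list mean, at 6.37 to 6.51 in zinc diet mice against 6.40 to 6.49 in control mice (5 genes). By gene, 2 of these 5 were higher, Pou3f1 (0.82) and Wfs1 (0.08), both without overlap. The others were lower with overlap, Amigo2 by the most (-0.64). Oligodendrocyte markers were at 9.45 to 10.18 in zinc diet mice, against 8.96 to 9.58 in control mice. Their list means overlapped, but 9 of the 9 tested genes were higher by their means, 1 of them without overlap, with a median log2 change of 0.44. Meningeal and fibroblast markers were at 6.37 to 6.57 in zinc diet mice, against 5.57 to 7.0 in control mice (4 genes), and choroid plexus markers at 5.52 to 6.31 in zinc diet mice, against 5.87 to 8.83 in control mice (5 genes). The highest value of both lists was that of control replicate 9, and for the meningeal list the other control mice, at 5.57 and 5.60, lay below all zinc diet mice. Without control replicate 9, Nt5e differed by 0.88 and Adk 1438292_x_at by 0.25. Excitatory neuron markers were at 9.91 to 10.09 in zinc diet mice, against 9.94 to 9.98 in control mice (8 genes). They did not move together, and 3 of the 8 were higher by their means. Neurod6 (0.67) was higher without overlap, and Neurod1 (-0.36) and Camk2a (-0.17) were lower without overlap. GABA neuron markers were at 11.63 to 11.75 in zinc diet mice, against 11.44 to 11.69 in control mice (3 genes). All 3 were higher by their means, 0 of them without overlap.

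**Figure D4:**
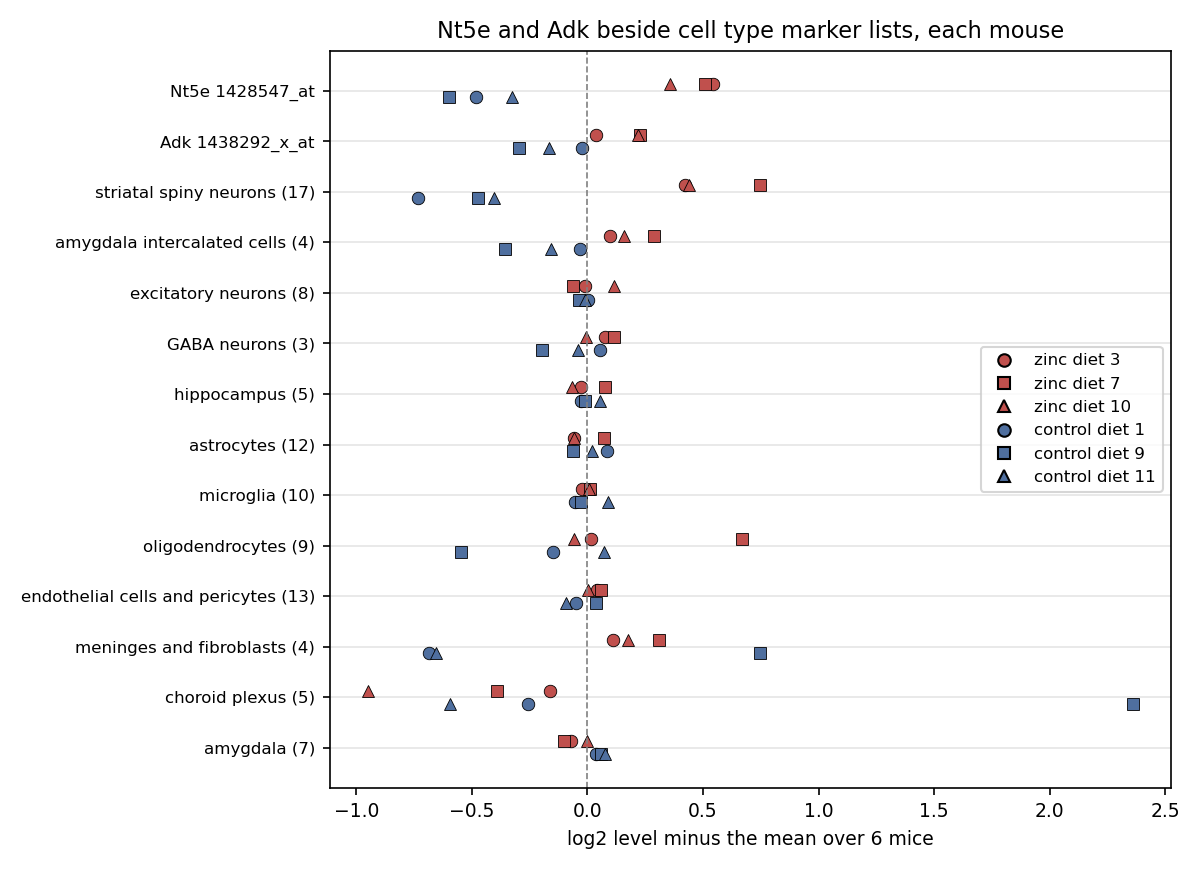
Log2 level of each mouse minus the mean over all 6 mice, for Nt5e, Adk and the mean of each cell type marker list (number of genes tested in parentheses), with zinc diet mice in red above control mice in blue. The diets separate for Nt5e, Adk 1438292_x_at, striatal spiny neuron markers and the mean of the 4 intercalated cell markers, with zinc diet mice higher. Of those 4 markers, Foxp2 alone separates the diets. The diets also separate for the mean of the 7 amygdala markers, with zinc diet mice lower. Of those 7, 3 were lower and 2 higher without overlap. Control replicate 9 stands far to the right for choroid plexus markers.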

How the data were processed

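The authors deposited 1 table with a log2 level for each probe set on each of the 6 arrays. The submitters' processing notes name GCRMA 2.28.0 and R 2.15.1, with no step attached, and filters or options are not stated. That the values are log2, with array medians of 4.04 to 4.09, was judged from their range, and any centring is unknown. Per the labels' protocols, 500 ng of RNA per mouse was labelled by 3′ in vitro transcription. Scanner files were not used, so no detection calls were at hand, and 3 arrays per diet limit the precision.

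Of 45101 probe sets, 64 control probe sets were left out. The platform annotation gave 1 symbol for 34958 probe sets, several for 932 and none for 9211. Probe sets averaging at least 4 over all arrays (22877) entered a two-sided limma test (version 3.58.1, R 4.3.3) with moderated variances and no covariate, and p-values were adjusted by Benjamini-Hochberg over all of them; the fit was tested on simulated data. Array pairs correlated at 0.991 to 0.996 across these probe sets. Intervals come from the moderated SE.

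The members, lists and tests were chosen with earlier results of these data known. All member probe sets are shown. From the purine list, genes without overlap between diets were named (up to 10), and Adora2b, Adora3, Ada and Slc29a2 in any case; Ak5, Pnp, Slc29a4, Panx1, Gja1, P2ry12, P2ry13 and P2ry14, and second probe sets of Ampd2, Nt5c2, Ak4, Nt5c3b and Slc29a4, were added after their values were seen, as was the count over all tested probe sets of the list. The 5 genes most like Nt5e were named, and the same search for Adora2a could not be made. Promoter windows come from RefSeq, GRCm38.p6. Processing alternatives changed the filter (none, or at least 6), the scaling (quantile or median), the floor (values under 4 set to 4), the variance model (trend with robust), array weights, the averaging of probe sets, or left out 1 mouse.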

Additional observations from a re-analysis of the deposited data

How the results depend on the processing

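No paired analysis was possible because the diets share no replicate number. With all probe sets tested, the number past an adjusted p of 0.05 was 0 in the reported fit, 2 with a mean of at least 6, 3 with trend and robust eBayes and 1 with probe sets averaged per gene, and 0 in the other alternatives, where the number at an unadjusted p under 0.05 ran from 853 without zinc diet replicate 7 to 2429 with no filter (1460 as reported). Neither a member nor another purine gene was among those called in any of them. Nt5e 1428547_at kept a log2 change of 0.88 to 1.01 with adjusted p from 0.093 (trend and robust eBayes) to 0.84 (without zinc diet replicate 7). Averaging all probe sets of a gene gave 0.34 for Nt5e and 0.11 for Adk, which takes in probe sets under the filter. The other 78 of 80 values of tested member probe sets moved by less than 1 SD between mice. That count says little about stability, because another filter or variance model leaves the log2 change of a probe set as it is. For Adk 1446068_at the SD, 0.26, was also larger than the change itself, 0.21. The median of the purine list was -0.0045 with no filter (51 genes) and -0.0054 with probe sets averaged per gene, against 0.063 as reported; the cause was not tested. Counting all 53 tested probe sets of the list, an alternative chosen after seeing the data, gave 0.01. Its genes at an unadjusted p under 0.05 numbered 0 to 3 higher and 0 to 2 lower. With no detection calls, whether levels under 4 are above background is not known here, which limits Entpd1, Ada, Adora3 and the dim probe sets of Nt5e and Adk.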
